A study of Mus musculus with 12 samples.

Results

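The genes described here encode the subunits of the proteasome and were taken by name: every array name that is Psma, Psmb, Psmc, Psmd or Psme followed by digits alone. The files hold 41 such names, and all 41 were well above background on all 12 arrays, so all were tested, among 18648 names in all. They were measured in total RNA of whole urinary bladder from female C57BL/6 mice of 10 weeks, which were acclimated to a cycle of 12 h light and 12 h dark for 2 weeks and then killed in constant darkness. The groups are circadian time (CT) 0, 4, 8, 12, 16 and 20, with 2 arrays at each, and they differ in no other labelled respect. CT0 to CT12 is the subjective day and CT12 to CT24 the subjective night, when mice are active. The labels do not say whether the arrays of a time came from separate animals, so every p-value measures the spread between these arrays, which may be technical.

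The proteasome is the enzyme complex that degrades proteins tagged with ubiquitin. Its core particle is a barrel of outer alpha rings and inner beta rings, and the proteolytic sites lie on beta subunits. A regulatory particle caps the barrel: a ring of ATPases unfolds the substrate, and non-ATPase subunits bind and trim its ubiquitin chain. Under interferon the catalytic beta subunits are replaced by inducible forms, which shifts the peptides cut for antigen presentation, and alternative activators can open the barrel in place of the regulatory particle. Most subunits are needed in fixed proportion, and their genes are transcribed together in many cell types. In smooth muscle and urothelium, the main tissues of the bladder wall, the proteasome takes part in ordinary protein turnover.

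No proteasome subunit gene passed the test for a 24 h wave, and the fitted waves were small. Dividing the signal at the fitted peak by that at the trough gives a wave's fold, and the median fold of the 41 members was 1.08, with a range of 1.01 (Psmb1, a beta ring subunit) to 1.24 (Psma4, Psma8 and Psmd1). By the moderated F-test with Benjamini-Hochberg adjustment over all names, 0 of 41 members had an adjusted p below 0.05, where 0.579% of all names did, and the smallest adjusted p among members was 0.192. At an unadjusted p below 0.05 there were 5 members (Psma4, Psmd1, Psmd2, Psmd5 and Psme3), or 12.2%, where 15.7% of all names were. Without CT4 replicate 1, CT16 replicate 1 or CT16 replicate 2 that count of 5 was 1. Clock genes had large waves on the same arrays, and all 5 read as a check passed the adjusted test: Dbp, a clock output gene, had a fold of 18.1 with a peak at CT9.50, Nr1d1, which encodes the repressor Rev-erb alpha, 11.5 at CT6.81, and Arntl, which encodes the activator Bmal1, 9.02 at CT22.5.

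A p above the threshold does not show that a gene was constant, so the largest wave inside each member's 95% confidence region was computed. The median of these upper limits was a fold of 1.31, from 1.19 for Psmc1, an ATPase, to 2.05 for Psma8, a testis form of alpha subunit. The limit lay below 1.5 for 37 of the 41 members, where 41.5% of all names and 69.5% of names with a mean level above 2 were that tightly bounded. These limits are those of the fit that leaves slide out. With slide as a fixed block, which uses differences within slides alone, their median was 1.73, their range 1.4 to 4.67, and 4 of the 41 lay below 1.5, while the members' median amplitude was 0.140, that of all names 0.222, and the fitted folds of Psmd1 and Psma4 1.53 and 1.54. Levels are log2 processed signal minus the array's 75th percentile, so 0 equals that percentile and 2 stands for a signal 4 times as high. The fitted amplitude, which is the distance from the mean to the peak on the log2 scale, had a median of 0.0528 over the members, 0.123 over all names and 0.0868 over the 4090 names with a mean level above 2. Of the 41 members, 37 lay below the median of all names and 32 below that of the brighter names. These medians describe the set and carry no test. The plot of fitted amplitudes gives each member by its place in the complex.

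**Figure D1:**
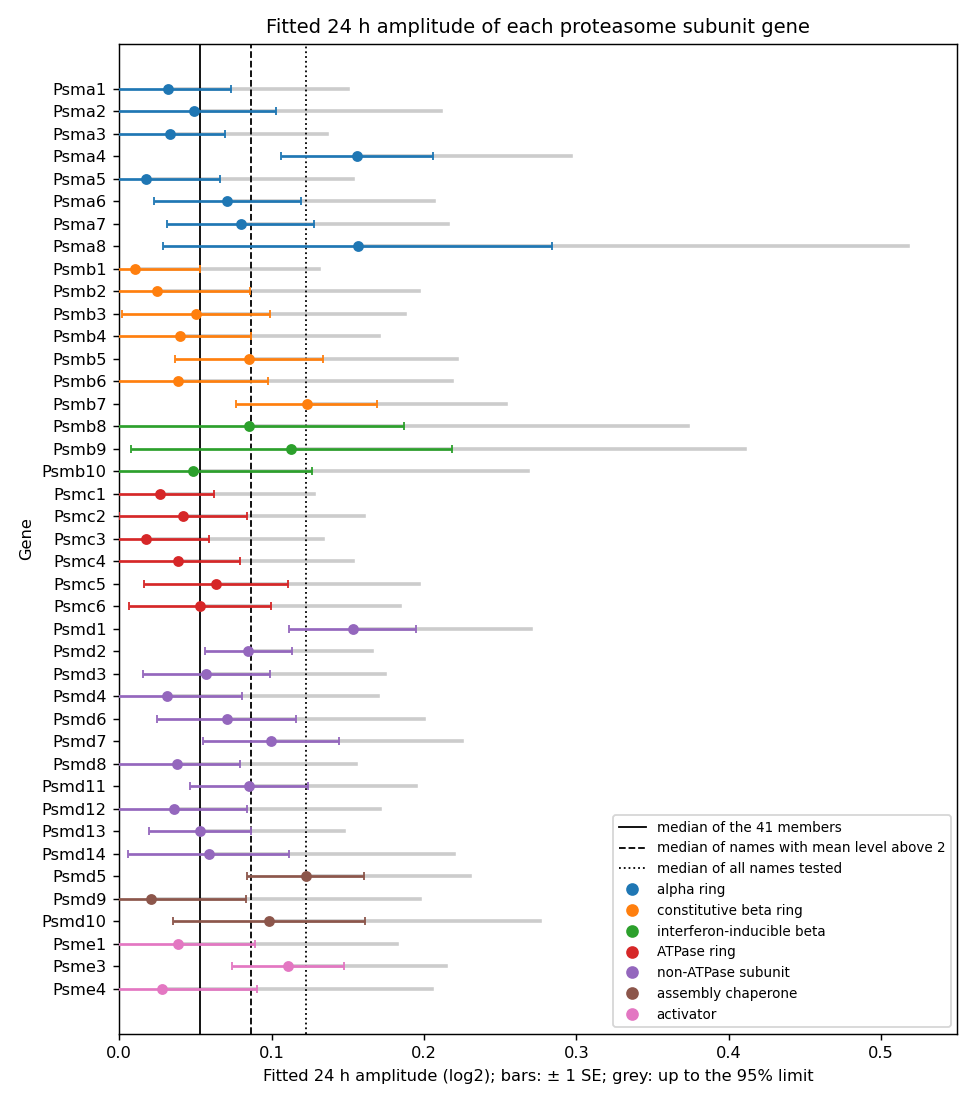
Fitted 24 h amplitude (log2, x axis) of the 41 proteasome subunit genes, coloured by role, with coloured bars of 1 standard error shown down to 0, grey bars up to the 95% limit, and lines at the medians of the members, of names with a mean level above 2 and of all names. Of the members, 37 lie left of the median of all names, 0.123, and the largest amplitude is 0.156.

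Small folds were found in every role. Fitted folds ran from 1.02 to 1.24 for the 8 alpha ring names, from 1.01 to 1.19 for the 7 constitutive beta ring names, from 1.07 to 1.17 for the 3 interferon-inducible beta names, from 1.02 to 1.09 for the probes used of the 6 ATPases, from 1.04 to 1.24 for the 11 non-ATPase subunits, from 1.03 to 1.19 for the 3 assembly chaperones and from 1.04 to 1.17 for the 3 activators. The ATPases form the ring that pulls the substrate in. For the probes used of these 6, the smallest adjusted p was 0.689 and the largest upper limit a fold of 1.31 in the fit without slide. Second probes of Psmc2 and Psmc5, given below, had larger folds. Fitted peaks fell between CT18 and CT6 for most members: 18 lay from CT18 to CT24, 15 from CT0 to CT6, 3 from CT6 to CT12 and 5 from CT12 to CT18. Over all names those shares were 31.2%, 25.7%, 19.6% and 23.5%. With amplitudes this small many peak times have wide errors, and for Psmb1 the standard error was 16.2 h.

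The F-test over the 6 times, which takes any pattern, also called 0 of 41 members, where 0.0912% of all names were called, with a smallest adjusted p of 0.192. Without adjustment, 2 members (Psma6 and Psmd1) lay below 0.05, or 4.88%, against 18.9% of all names. That count was 8 without CT8 replicate 2, 5 without CT8 replicate 1, 1 without CT4 replicate 2, CT12 replicate 1 or CT16 replicate 1, and 0 without CT16 replicate 2. The heat map of deviations shows all members on all arrays.

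**Figure D2:**
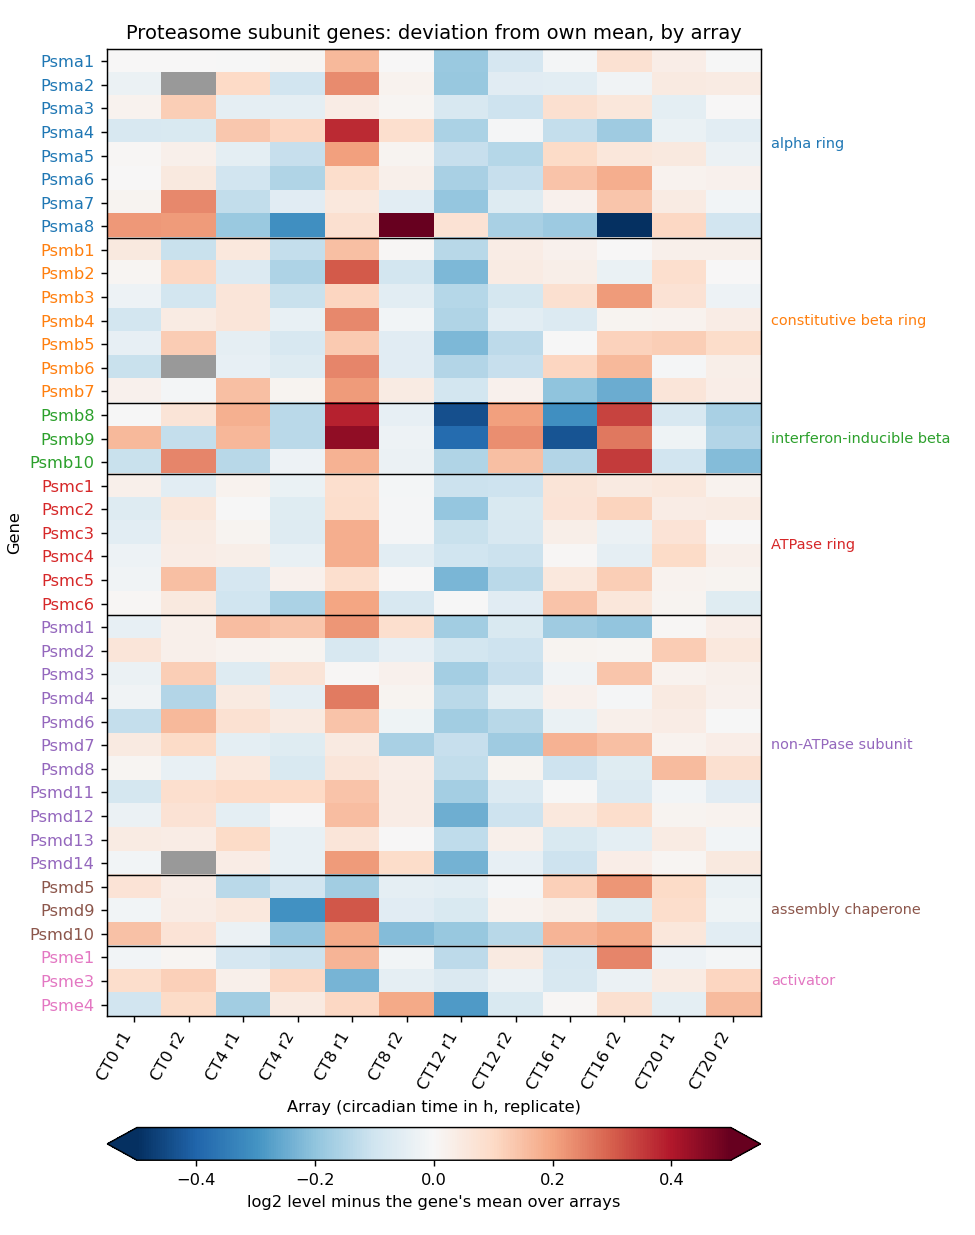
Deviation of each proteasome subunit gene from its own mean over the arrays (log2, colour, with the end colours for values beyond the scale), with genes in rows grouped by role, arrays in columns in order of circadian time, r1 and r2 for the replicates and grey for a dropped spot. The columns of CT8 replicate 1, where 38 of 41 members lie above their mean, and CT12 replicate 1, where 40 lie below, stand out.

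Psmd1 encodes the large scaffold subunit Rpn2 of the regulatory particle, and its probe lies at chr1:86027149-86027208 of build mm7. Its level was 2.17 and 2.24 on the arrays of CT0, 2.37 and 2.35 at CT4, 2.43 and 2.29 at CT8, 2.04 and 2.14 at CT12, 2.03 and 2.02 at CT16, and 2.22 and 2.25 at CT20. The arrays of CT4 and CT8 were the highest and both arrays of CT16 the lowest, with no overlap between those times. The wave had a fold of 1.24 with a peak at CT4.09 (SE 1.03 h) and an adjusted p of 0.192, the smallest of the members. Between CT16 and CT4 the fitted difference was -0.33 (SE 0.08, log2), with an adjusted p of 0.0814, the nearest that any member came to the threshold in any test. That adjusted p ranged from 0.0382 to 0.274 for the member with the smallest value over the alternatives tried, and 4 alternatives called 1 or 2 members here. CT4 and CT16 lie on different slides, so slide and time cannot be told apart in this difference.

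Psmd5, a chaperone that holds ATPases during assembly of the cap and is not part of the finished complex, ran the other way. Its level was 2.16 and 2.12 at CT0, 1.95 and 1.99 at CT4, 1.91 and 2.04 at CT8, 2.04 and 2.08 at CT12, 2.21 and 2.31 at CT16, and 2.18 and 2.05 at CT20. The arrays of CT16 were the highest and those of CT4 lay below them without overlap. The fitted fold was 1.19 with a peak at CT18.1 (SE 1.19 h) and an adjusted p of 0.257, and the difference CT16 minus CT4 was 0.28 (SE 0.08) with an adjusted p of 0.124.

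Psma4, an alpha ring subunit, stood at 2.28 and 2.28 at CT0, 2.49 and 2.46 at CT4, 2.73 and 2.44 at CT8, 2.20 and 2.35 at CT12, 2.24 and 2.18 at CT16, and 2.32 and 2.31 at CT20. All 4 arrays of CT4 and CT8 lay above the other 8, with CT8 replicate 1 well above the rest. Its wave had a fold of 1.24 with a peak at CT5.97 (SE 1.21 h) and an adjusted p of 0.266. The file holds 2 probes for Psma4, and the second was not used in the count. In a fit over all probes it gave a fold of 1.24 with a peak at CT6.31 and an adjusted p of 0.307, where the probe used had 0.255.

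Psmb7, the constitutive beta subunit with trypsin-like activity, had a similar course. Its level was 2.64 and 2.61 at CT0, 2.77 and 2.63 at CT4, 2.83 and 2.66 at CT8, 2.53 and 2.64 at CT12, 2.42 and 2.37 at CT16, and 2.68 and 2.65 at CT20. The arrays of CT16 were the lowest of the 12. The fold was 1.19 with a peak at CT4.34 and an adjusted p of 0.350, and the difference CT16 minus CT4 was -0.31 (SE 0.09) with an adjusted p of 0.124.

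Psmd2 encodes Rpn1, the other large scaffold of the regulatory particle, which docks ubiquitin receptors. Its values were 3.62 and 3.58 at CT0, 3.57 and 3.57 at CT4, 3.48 and 3.51 at CT8, 3.47 and 3.45 at CT12, 3.57 and 3.57 at CT16, and 3.68 and 3.61 at CT20. The 4 arrays of CT8 and CT12, which share a slide, were the lowest. The wave had a fold of 1.12 with a peak at CT22.0 and an adjusted p of 0.298. In the fit over all probes, the second probe of Psmd2 gave a fold of 1.13 with a peak at CT23.4. Its adjusted p was 0.619, where the probe used had 0.307. Psmd1 and Psmd2, the paired scaffolds of one particle, thus had fitted peaks at CT4.09 and CT22.0, and neither wave passed the adjusted test.

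Psma6, an alpha ring subunit, was among the 3 smallest p-values of the 6-time test (adjusted p = 0.209) but not of the 24 h test (adjusted p = 0.643). It stood at 4.14 and 4.18 at CT0, 4.04 and 3.99 at CT4, 4.23 and 4.16 at CT8, 3.98 and 4.02 at CT12, 4.28 and 4.32 at CT16, and 4.15 and 4.16 at CT20. Its replicates lay close together, and the order of times, low at CT4 and CT12 and high at CT8 and CT16, is not that of a 24 h wave. The difference CT16 minus CT4 was 0.285 (SE 0.07) with an adjusted p of 0.0870.

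**Figure D3:**
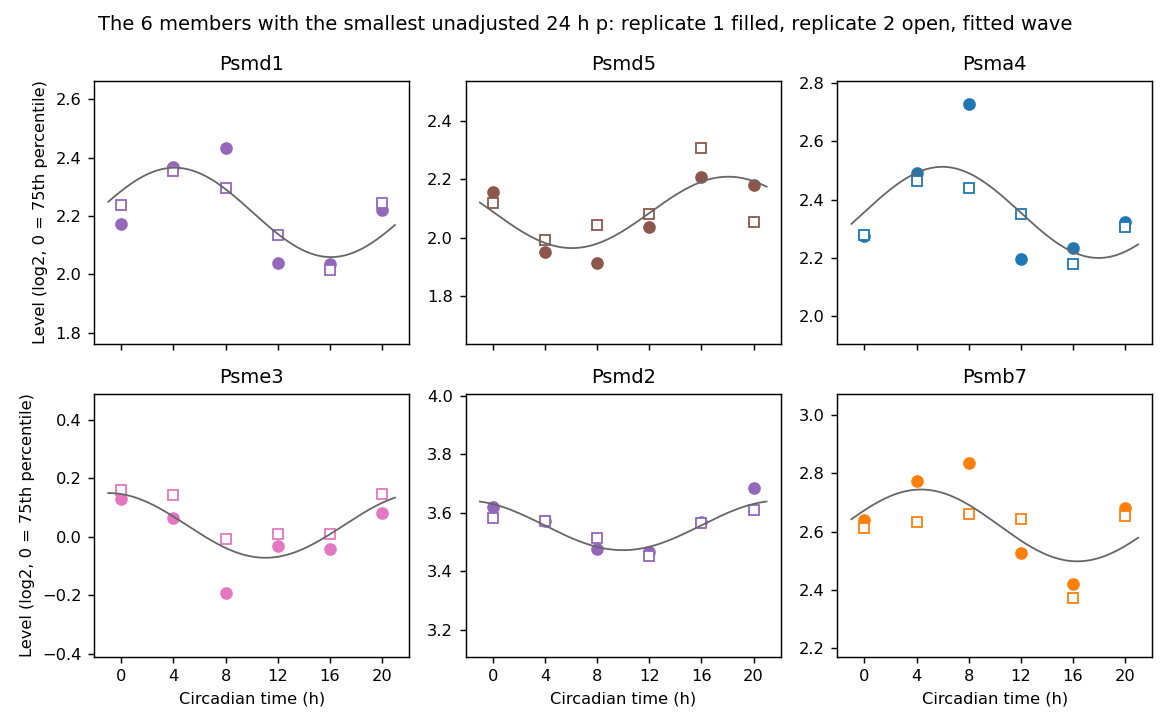
Level (log2 of processed signal minus the array's 75th percentile, y axis) against circadian time (h, x axis) of the 6 members with the smallest 24 h p-values, with replicate 1 as filled and replicate 2 as open points and the fitted 24 h wave as a line. The largest fitted fold among them is 1.24 and the adjusted p-values of the 24 h test start at 0.192.

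Among the times 12 h apart, CT12 minus CT0 called 0 of 41 members (background 0.193%, 0.129% higher and 0.0644% lower) with a smallest adjusted p of 0.432, CT16 minus CT4 called 0 (background 0.391%, 0.22% higher and 0.172% lower), and CT20 minus CT8 called 0 (background 0.059%, 0.0215% higher and 0.0375% lower) with a smallest adjusted p of 0.373, all by moderated contrasts with Benjamini-Hochberg adjustment. At an unadjusted p below 0.05, 4 members were lower at CT12 than at CT0 (Psma6, Psma7, Psmc5 and Psmd7) and 0 higher, or 9.76% of members, where 10.6% of all names were past it, 5.95% lower and 4.68% higher. For CT16 against CT4 there were 3 higher (Psma6, Psmd5 and Psmd7, the non-ATPase subunit Rpn8) and 3 lower (Psma4, Psmb7 and Psmd1), or 14.6% of members in all, where 20.9% of all names were past it, 11.6% higher and 9.28% lower. The count for CT12 against CT0 was 0 without CT0 replicate 2 or CT12 replicate 1 and 7 without CT0 replicate 1, and that for CT16 against CT4 was 2 without CT4 replicate 1 or CT16 replicate 2. For CT20 against CT8 there was 1 higher, Psme3, and 1 lower, Psma4, or 4.88% of members, where 12.2% of all names were past it, 6.41% higher and 5.8% lower, and it was 0 of either without a CT20 array and 4 in all without CT8 replicate 2.

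The signs of the differences were one-sided for CT12 minus CT0. In this contrast, as in the others above, the times compared lie on different slides, so slide and time cannot be told apart. The fitted difference was below 0 for 41 of 41 members, with a median of -0.12 (log2) and a range of -0.27 to -0.004, where 57.8% of all names and 71.7% of names with a mean level above 2 were below 0. This one-sidedness depended on the scaling and on 1 array: 33 of 41 members were below 0 with quantile normalisation and also in the authors' deposited table, 29 when each array was shifted by the median deviation of the brighter names, and 31 without CT12 replicate 1. For CT20 minus CT8, 32 of 41 members were below 0, but 15 without CT8 replicate 1. For CT16 minus CT4 it was 16 of 41, and 23 both in the authors' deposited table and after the shift by the brighter names and 24 with quantile normalisation, but 8 with median scaling, where the median difference of all names was 0.105 and not 0.02.

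Replicates of one time differed in these signs. On CT8 replicate 1, 38 of 41 members lay above their own mean, with a median deviation of 0.15 (log2), and on CT8 replicate 2 it was 19 of 41, with a median of -0.01. On CT12 replicate 1, 40 of 41 lay below their mean, with a median of -0.15, and on CT12 replicate 2 it was 31, with a median of -0.08. On the same arrays the names with a mean level above 2 had medians of 0.04, -0.03, -0.07 and -0.06. The medians of the members on the other 8 arrays ran from -0.06 to 0.06. CT8 and CT12 share slide 2, and within it 39 of 41 members were lower at CT12, with a median difference of -0.18, while 68% of the brighter names were lower, with a median of -0.07. Some lists of genes that act with the proteasome also lay above their mean on CT8 replicate 1 and below it on CT12 replicate 1. The median deviations there were 0.13 and -0.13 for 4 genes listed under assembly and inhibition (Pomp, Psmf1, AI314180 and Txnl1). They were 0.08 and -0.15 for 13 genes listed under receptors and deubiquitinases, a list that also holds genes of other roles, such as Ube3c and Shfm1. For 13 genes of ubiquitin supply and p97 they were 0.08 and -0.11. The median of 10 genes that control subunit transcription went the other way, at -0.08 and 0.08. On CT8 replicate 1, 7 of these 10 lay below their mean, and on CT12 replicate 1, 7 lay above it. Not all did so: Nfe2l1 was below its mean of 4.54 on both arrays, at 4.47 and 4.48. Keap1 went with the members, at 3.52 and 3.05 around a mean of 3.23. Within the other slides the members' median difference was -0.03 for CT4 minus CT0 and 0.00 for CT20 minus CT16. On CT12 replicate 1 the median deviation of 7 urothelial markers was at its lowest (-0.45) and those of 7 smooth muscle markers (0.21) and 5 fibroblast markers (0.25) at their highest. On CT8 replicate 1 these medians were 0.02, 0.065 and 0.13. The urothelial median was highest on the arrays of CT20, at 0.18 and 0.33, where the members' medians were 0.04 and 0.01. The log2 of the urothelial markers' summed level ran from 8.38 to 9.12 over the arrays. The part of these markers in the members' shift was not tested.

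**Figure D4:**
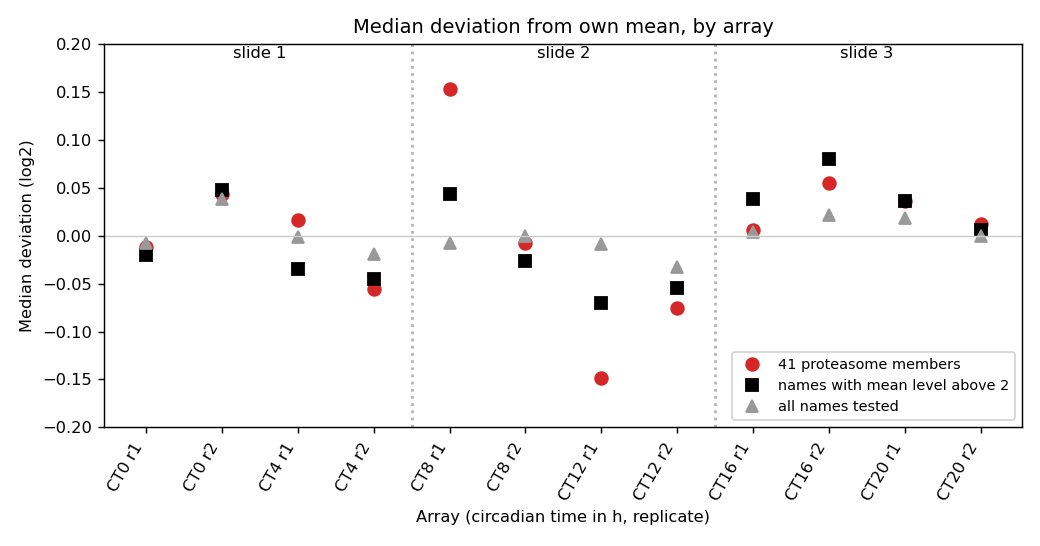
Median deviation from the gene's own mean (log2, y axis) on each of the 12 arrays in order of circadian time (x axis, r1 and r2 for the replicates, dotted lines between slides), for the 41 proteasome subunit genes, names with a mean level above 2 and all names tested. The members reach 0.15 on CT8 replicate 1 and -0.15 on CT12 replicate 1 and stay within 0.06 of 0 on the others except CT12 replicate 2, at -0.08.

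The interferon-inducible beta subunits Psmb8, Psmb9 and Psmb10, which replace Psmb5, Psmb6 and Psmb7 at the proteolytic sites, had wide gaps between the arrays of one time. Psmb8 stood at 2.84 and 2.91 at CT0, 3.02 and 2.71 at CT4, 3.23 and 2.81 at CT8, 2.41 and 3.05 at CT12, 2.54 and 3.19 at CT16, and 2.77 and 2.68 at CT20. Replicate 1 of CT12 and of CT16 gave the lowest pair of values, while replicate 2 of both times lay among the 3 highest. Psmb9 stood at 2.98 and 2.70 at CT0, 2.99 and 2.68 at CT4, 3.26 and 2.79 at CT8, 2.44 and 3.05 at CT12, 2.39 and 3.08 at CT16, and 2.797 and 2.67 at CT20, with the same low and high arrays as Psmb8 at CT8, CT12 and CT16. Their genes lie near each other on chromosome 17, with probes at chr17:32280668-32280727 and chr17:32262147-32262206 of mm7. Psmb10, on chromosome 8, had 4.64 and 4.996 at CT0, 4.61 and 4.73 at CT4, 4.93 and 4.72 at CT8, 4.60 and 4.90 at CT12, 4.61 and 5.10 at CT16, and 4.66 and 4.54 at CT20. It shared the low replicate 1 and high replicate 2 of CT12 and CT16.

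The SD between the arrays of a time was 0.306 for Psmb8, 0.325 for Psmb9 and 0.2103 for Psmb10 (log2), where its median was 0.0866 over the 41 members and 0.103 over names with a mean level above 2. Of those brighter names, 3.18% had a larger SD than Psmb8, 2.57% than Psmb9 and 9.93% than Psmb10. Among the other members Psma8 had an SD of 0.242, above that of Psmb10, and the next was Psmd9 with 0.156. Of the brighter names, 6.55% exceeded the SD of Psma8. But Psma8 and Psmd9 are dimmer than those names, with mean levels of -2.86 and 0.49, and the median SD over all names was 0.156. None of the 3 inducible subunits had a wave past the test (folds of 1.12, 1.17 and 1.07, smallest adjusted p = 0.781), and their upper limits were wide, at folds of 1.68, 1.77 and 1.45. In the fit over all probes, the second probe of Psmb8 gave a fold of 1.08 and an adjusted p of 0.944, where the probe used had 0.853.

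Of their counterparts, Psmb5, the chymotrypsin-like subunit, stood at 4.27 and 4.44 at CT0, 4.27 and 4.23 at CT4, 4.44 and 4.25 at CT8, 4.09 and 4.18 at CT12, 4.31 and 4.43 at CT16, and 4.43 and 4.40 at CT20, with both arrays of CT12 lowest. Psmb6, the caspase-like subunit, stood at 4.68 on the 1 array of CT0 that was kept, at 4.75 and 4.73 at CT4, 5.04 and 4.74 at CT8, 4.65 and 4.68 at CT12, 4.90 and 4.96 at CT16, and 4.79 and 4.82 at CT20. Its spot on CT0 replicate 2, like those of Psma2 and Psmd14, was marked as an outlier in the scanner file and dropped, so these 3 members were fitted on 11 arrays. The folds were 1.12 for Psmb5 (adjusted p = 0.556) and 1.06 for Psmb6 (adjusted p = 0.906), with SDs between arrays of a time of 0.0866 and 0.0983.

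**Figure D5:**
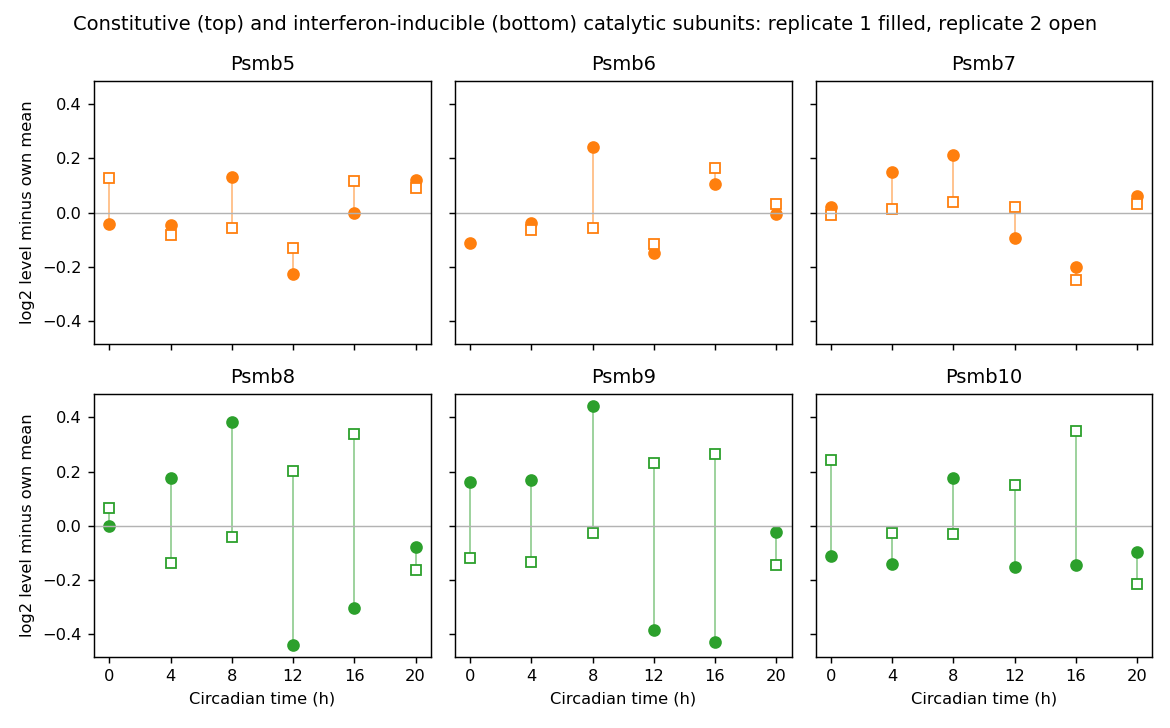
Deviation from the gene's own mean (log2, y axis) against circadian time (h, x axis) of the constitutive catalytic subunits (top) and their interferon-inducible counterparts (bottom), with replicate 1 filled, replicate 2 open and a line joining the arrays of a time. Those of CT12 and of CT16 lie far apart for Psmb8 (levels of 2.41 and 3.05, and 2.54 and 3.19) and Psmb9 and closer together for the constitutive subunits.

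A list of 11 genes of antigen processing and interferon response, which work beside the inducible subunits, was read on the same arrays. On CT12 replicate 1, 10 of the 11 lay below their own mean and on CT12 replicate 2, 8 lay above it. On CT16 replicate 1, 10 lay below, and on CT16 replicate 2, 9 lay above. The list's median deviation was -0.23 and 0.19 on the arrays of CT12, -0.26 and 0.10 on those of CT16, and 0.22 and -0.08 on those of CT8. Gbp2, an interferon-induced GTPase, and Tap1, a peptide transporter encoded beside Psmb9, were chosen after their values were seen. Gbp2 stood at 2.21 and 2.56 at CT12 and 1.89 and 3.01 at CT16, and Tap1 at -1.26 and -0.72 and then -1.64 and -0.88. None of the 11 passed the 24 h test after adjustment, and at an unadjusted p below 0.05 there was 1, Calr, a chaperone of class I loading, with a fold of 1.34 and an adjusted p of 0.227. Next came B2m, the light chain of class I molecules (adjusted p = 0.359), and Tapbp, which bridges class I molecules to the transporter (adjusted p = 0.472).

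For leukocytes, 11 markers could be tested, 10 of them well above background on all 12 arrays. Their median deviation was -0.09 and 0.37 at CT12, -0.34 and -0.26 at CT16 and 0.10 and 0.14 at CT8, and the log2 of their summed level ran from 6.49 to 7.17. The leukocyte markers therefore differed between the arrays of CT12 in the same direction as the inducible subunits. At CT16 their median was below 0 on both arrays, and those subunits were low on replicate 1 and high on replicate 2. Single markers went both ways between the arrays of CT16. Ptprc stood at -0.23 and 0.15 and Cd52 at 1.55 and 2.09, but Csf1r at 0.45 and 0.13 and Laptm5 at -1.56 and -1.88. The part of the leukocyte markers in the result was not tested. In whole tissue, fewer cells of a type and less RNA per cell cannot be told apart.

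Among the activators, Psme1 (a subunit of the interferon-inducible cap PA28 alpha beta) stood at 4.28 and 4.30 at CT0, 4.21 and 4.19 at CT4, 4.46 and 4.28 at CT8, 4.16 and 4.34 at CT12, 4.21 and 4.54 at CT16, and 4.27 and 4.28 at CT20. Its highest value, like that of Psmb10, was on CT16 replicate 2. The fold was 1.05 with an adjusted p of 0.878. Psme3, the nuclear cap PA28 gamma, stood at 0.13 and 0.16 at CT0, 0.07 and 0.14 at CT4, -0.19 and -0.01 at CT8, -0.03 and 0.01 at CT12, -0.04 and 0.01 at CT16, and 0.08 and 0.15 at CT20. The 6 arrays of CT20, CT0 and CT4 lay above the 6 of CT8, CT12 and CT16, a split seen after the values were known. Its wave had a fold of 1.17 with a peak at CT23.1 (SE 1.27 h) and an adjusted p of 0.289, and CT20 minus CT8 was 0.22 (SE 0.09) with an adjusted p of 0.378.

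Psme4 encodes PA200, an activator of the nucleus. It had 3.90 and 4.09 at CT0, 3.82 and 4.04 at CT4, 4.10 and 4.19 at CT8, 3.71 and 3.92 at CT12, 4.00 and 4.08 at CT16, and 3.95 and 4.16 at CT20. The fold was 1.04 with an adjusted p of 0.956. Both arrays of CT12 lay below both of CT8 and both of CT16. Of its 4 probes, 1 dim probe gave a fold of 1.31 with an adjusted p of 0.272 in the fit over all probes. Another had a fold of 1.05, and 1 was not well above background on enough arrays to be tested. A gene spelled Psme2b-ps in the files fell outside the naming rule and had a fold of 1.06 with an adjusted p of 0.850. Psmb11, the thymus beta subunit, is listed under a clone name in the files and was too dim to be tested.

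In all, 60 probes carried the 41 names, 26 names having 1 probe and 15 more than 1, and 58 of these probes could be tested, of which 0 passed the 24 h test after adjustment, where 0.8% of all probes did, and 7 had an unadjusted p below 0.05, where 16.7% of all probes had. Probes of one gene did not always peak at like times. For Psmd7 the probe used peaked at CT20.0 with a fold of 1.15 (adjusted p = 0.432), and a second probe at CT5.28 with a fold of 1.32 (adjusted p = 0.277), while a dim probe peaked at CT20.6 with a fold of 1.203 (adjusted p = 0.709). For Psmd14, the deubiquitinase Rpn11, the probe used peaked at CT3.46 (fold 1.08) and the second at CT20.9 (fold 1.15), and for Psmc5, an ATPase, the second probe had a fold of 1.202 with an adjusted p of 0.167 where the probe used had 1.09. The largest fold of any tested member probe was 2.63, for a dim second probe of the ATPase Psmc2 (adjusted p = 0.360), where the probe used had 1.06. These p-values come from a fit over all probes.

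Other genes that act with the proteasome were counted from lists. Of the 4 genes listed under assembly and inhibition, 0 had an unadjusted p below 0.05. The smallest adjusted p was 0.435 for Psmf1, the inhibitor PI31. Of the 13 genes listed under receptors and deubiquitinases at the proteasome, 0 passed after adjustment and 2 without. Among these 2 was Zfand2a, a stress-induced partner of the cap (fold 1.29, peak CT19.2, adjusted p = 0.263). Ubqln2, a shuttle receptor, came next (adjusted p = 0.354).

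Of 10 genes that control subunit transcription, 0 passed after adjustment and 2 without. Keap1, the adaptor that turns over the factor Nrf2, had a fold of 1.30 with a peak at CT4.98 (adjusted p = 0.145), and Nfe2l1, which encodes the activator of subunit genes when the proteasome is inhibited, 1.26 with a peak at CT18.6 (adjusted p = 0.287). Ngly1, which processes that activator, followed with an adjusted p of 0.357. Of 13 genes of ubiquitin supply and the segregase p97, 0 passed after adjustment and 2 without: Otub1 (fold 1.35, peak CT6.68, adjusted p = 0.189) and Usp5 (fold 1.34, peak CT4.21, adjusted p = 0.192), both deubiquitinases, with Uchl3 next (adjusted p = 0.366). Across these lists 0.579% and 15.7% of all names are the shares to set the counts against.

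Promoter windows of 250 bases before to 50 after the start were at hand for 34 members (36 windows of 32851, RefSeq, build GRCm38.p6) and were searched on both strands. The E-box CACGTG, which Clock and Bmal1 bind, was in 4 of the 36 (11.1%) and in 7.15% of all windows, in Psma4, Psmb10, Psmd9 and Psme3. TGACNNNGC, the core that Nrf1 and Nrf2 bind, was in 6 (16.7%, against 12.4%), among them Psmb5. AGGTCA, which Rev-erb and Ror bind, was in 10 (27.8%, against 16.3%), and TTANNTAA, a D-box form, in 1 (2.78%, against 6.00%), Psmd6. The core of the interferon-stimulated response element was in 4 (11.1%, against 3.44%), which were Psmb3, Psmd4, Psmd9 and Psme1. Windows were at hand for Psmb8, Psmb9 and Psmb10, and none of these had that core. A match is a description of the letters and not a site. The 250 bases before the start are shown for Psma4 and Psme3, which have an E-box and values given above, for Psmd1, which had the smallest p and no match, and for Psmb5, with matches in capitals and the gene's own strand read 5′ to 3′.
Psma4, chr9:54950609-54950858, + strand: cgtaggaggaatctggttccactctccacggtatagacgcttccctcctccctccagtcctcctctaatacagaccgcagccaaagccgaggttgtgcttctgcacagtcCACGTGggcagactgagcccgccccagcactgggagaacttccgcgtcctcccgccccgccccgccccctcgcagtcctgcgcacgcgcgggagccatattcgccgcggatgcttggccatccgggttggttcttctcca
Psme3, chr11:101315963-101316212, + strand: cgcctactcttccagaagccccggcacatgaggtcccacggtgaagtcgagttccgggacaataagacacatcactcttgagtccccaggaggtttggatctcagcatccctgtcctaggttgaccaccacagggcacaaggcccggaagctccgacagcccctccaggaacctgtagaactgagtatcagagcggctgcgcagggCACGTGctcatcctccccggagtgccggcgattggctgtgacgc
Psmd1, chr1:86064369-86064618, + strand: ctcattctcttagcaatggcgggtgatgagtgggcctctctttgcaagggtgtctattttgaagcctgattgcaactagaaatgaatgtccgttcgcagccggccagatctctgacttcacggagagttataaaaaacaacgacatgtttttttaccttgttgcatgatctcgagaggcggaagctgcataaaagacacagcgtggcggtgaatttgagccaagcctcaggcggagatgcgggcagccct
Psmb5, chr14:54617996-54618245, - strand: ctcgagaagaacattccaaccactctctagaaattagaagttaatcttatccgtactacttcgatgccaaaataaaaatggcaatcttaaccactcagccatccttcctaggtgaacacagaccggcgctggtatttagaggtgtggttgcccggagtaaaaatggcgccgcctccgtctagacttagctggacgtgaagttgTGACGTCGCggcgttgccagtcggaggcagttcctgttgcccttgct
The capitals in Psma4 and Psme3 are the palindrome CACGTG, and those in Psmb5 are a match to TGACNNNGC.

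All 7 smooth muscle, 7 urothelial and 5 fibroblast markers were well above background on all 12 arrays. So were 5 of 7 hepatocyte, 7 of 9 striated muscle and 6 of 7 adipocyte markers, so this count does not identify the tissue. The 75th percentile of signal was 844 to 984 intensity units per array, 64.2% to 70.2% of spots were well above background and 0 spots were saturated, and the number of arrays limits the precision. Markers of hepatocytes and adipocytes differed between the arrays of a time far more than the members, with median SDs of 2.49 and 1.15 (log2). The median deviation of the hepatocyte markers was lowest on CT20 replicate 1 (-2.73) and highest on CT20 replicate 2 (3.42), while the members' medians there were 0.04 and 0.01. On replicates 1 and 2 of the other times, the hepatocyte median was -2.07 and 1.68 at CT0 and -1.97 and -0.21 at CT4. It was 0.85 and 0.28 at CT8, -0.70 and 2.97 at CT12, and -1.89 and 0.31 at CT16. The part of these markers in the values of the members was not tested.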

How the data were processed

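Total RNA was labelled with Cy3 and hybridised to Agilent 1-colour arrays. Per the file headers, the deposited files hold the intensity of each spot from Feature Extraction 10.5.1.1, as processed by that software within each array and not between arrays. The authors' value table (log2) covers 27883 of 41174 probes, and its normalisation is not given in the sources used here. The submitters' processing notes name R 2.8.1. The table served as an alternative.

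Outlier spots were dropped, log2 processed signals were averaged per probe, and each array's 75th percentile was subtracted. Names are those in the files, with 1 probe per name by highest mean. Names well above background on at least 4 arrays were tested in R 4.3.3 with the moderated tests of limma 3.58.1, computed so that a gene lacking 1 array is fitted on the rest: cosine and sine terms of 24 h (9 residual degrees of freedom), and a 1-way fit over 6 times (6 residual degrees) with 3 contrasts. All p-values were two-sided or F-tests, with Benjamini-Hochberg adjustment over all names and a threshold of 0.05. The script was tested on simulated data.

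Slide 1 holds the arrays of CT0 and CT4, slide 2 those of CT8 and CT12, and slide 3 those of CT16 and CT20, with 1 scan day for all. Probe coordinates are those of the files (mm7), with no annotation used here. Genes given array by array were those past a test, the 6 and 3 smallest p-values of the 24 h and 6-time tests (Psma4 and Psmb7 tied closely for the last place of the latter), the catalytic beta subunits and the activators, and from each list up to 3 smallest p-values. Other members singled out were chosen after their values were seen, as were Gbp2 and Tap1. Among them are Psmd7, Psmd14, Psmc2 and Psmc5 for their probes and Psma8 and Psmd9 for their SD. Some genes of these lists are not reported here. Members and lists were chosen with earlier results of these data known. Alternatives covered background correction, scaling, the dim-probe filter, probe choice, names, outliers, the variance prior, array weights, blocks and leaving out each array.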

Additional observations from a re-analysis of the deposited data

How the results depend on the processing

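The counts of 0 members for the 24 h wave, the 6-time test, CT12 minus CT0 and CT20 minus CT8 stayed at 0 under every alternative that could be fitted. For CT16 minus CT4 the count became 1 with the authors' deposited table (Psmd1, adjusted p = 0.0483), 1 with an intensity trend in the prior (Psma6, 0.0472), 2 with array weights (Psma6 and Psmd1, smallest 0.0382) and 1 with each array shifted by the median of brighter names (Psmd1, 0.0448), the last chosen after seeing the data; over all alternatives the smallest adjusted p ranged from 0.0382 to 0.274. The cause was not tested. Leaving out each array in turn gave 0 to 0 members in each of the 5 tests, with a lone array assumed to vary like the other groups. The members' median amplitude was 0.0476 to 0.0674 when an array was left out, 0.0504 to 0.0655 under the others, and 0.140 with slide as a fixed block, where all names had 0.222 and only differences within slides are used. Contrasts and the 6-time test could not be fitted with slide as a random block, nor contrasts with it as a fixed block.

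Counts over all names moved more than 1.5 times: 108 names with a 24 h wave became 2 (fixed slide block) to 198 (array weights), and 33 (without CT12 replicate 2) to 101 without 1 array; 17 in the 6-time test became 0 to 49, and 138 without CT0 replicate 1; 36 for CT12 minus CT0 became 0 to 48, and 178 without CT0 replicate 1; 73 for CT16 minus CT4 became 8 to 946, and 0 without either CT4 array; 11 for CT20 minus CT8 became 5 to 18. The 5 members at an unadjusted 24 h p below 0.05 were 1 without CT4 replicate 1, CT16 replicate 1 or CT16 replicate 2. Correlations of deviations between same-numbered arrays ran from -0.20 to 0.44, with a median of 0.17. Whether the numbers pair the arrays cannot be settled from these values. With the replicate block the count of members was 0 in all 5 tests. The low number of arrays limits what can be seen.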
